A study of Mus musculus with 18 samples.

Results

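The genes described here are 45 markers of cells other than T cells, read in libraries made from sorted CD4+ T cells. They were taken as the rows of the deposited gene table that belong to a list of named genes, 18 epithelial, 7 stromal, 3 endothelial, 11 myeloid and 6 erythroid, out of 34162 genes in the table. Of the 45, 36 passed the filter on low counts and were tested among 14876 genes. The other 9 (Krt20, Vil1, Muc2, Cldn3, Reg3b, Reg3g, Cdh5, Kdr and Slc4a1) are given by level only. A gene can pass that filter through the one organ in which it is high, so the tested genes are not a neutral sample of the list.

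The study sequenced RNA from about 500 effector CD4+ T cells per library, sorted from Rag-deficient mice 3 weeks after T cell transfer. The hosts make no mature T or B cells of their own but keep their epithelium, stroma, vessels, myeloid cells and red cells. The transferred cells were C57BL/6 wild type cells that carry the CD45.1 allele, or C57BL/6 cells lacking the nuclear receptor CAR (Nr1i3-/-), and both came from spleen, colon lamina propria (cLP) and small intestine lamina propria (siLP). Each of the 6 groups has 3 libraries (18 together), named a, b and c here in column order only, and values are given in that order. Whether the 3 came from different hosts is not stated, so the p-values measure only the spread between these libraries, which may be technical. Whether wild type and CAR-deficient libraries, or those of different organs, shared hosts was not established here either. The 6 libraries of an organ may therefore not be independent.

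Lineage markers are genes whose RNA is abundant in one kind of cell and scarce in others. Decorin, lumican and the fibrillar collagens are made by fibroblasts, keratins of simple epithelia and tight junction claudins by the cells that line the gut, complement C1q and lysozyme by macrophages, and globins by maturing red cells. Each organ surrounds its T cells with a different mix of these: the spleen filters blood and in mice also forms red cells, while the lamina propria is connective tissue directly under the gut epithelium.

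Total estimated counts ran from 19605135 to 25436389 per library. All 15 genes of a T cell reference list were above 3 counts in every library, with Cd3e between 555 and 1372 CPM (counts relative to the TMM-scaled library size) and Cd4 between 109 and 236 CPM, while the CD8 gene Cd8a reached at most 2.44 CPM and Cd8b1 at most 11.6 CPM (median 3.96). The 6 libraries called a stood apart. They held 15466 to 16128 detected genes against 17013 to 18819 in the others, and the mitochondrial share was 3.70% to 3.98%, against 2.23% to 3.22% elsewhere. Counts of calls are therefore also given without these 6.

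By median, the erythroid markers had the highest sum of the 5 lists in spleen, the stromal markers in cLP and the myeloid markers in siLP. The lists differ in length, so the order depends on the genes chosen. To sum over genes of different length, length-scaled levels (TPM) were computed from the counts and the merged exon length of each gene. Summed erythroid TPM came to a median of 12.2% of the summed TPM of the T cell reference genes in spleen (1.77% to 35.2%), against 0.0359% in cLP and 0.0670% in siLP. Summed stromal TPM came to a median of 2.59% in cLP (0.0116% to 3.70%), against 0.00166% in spleen and 0.0218% in siLP. For the epithelial genes the medians were 0.0587% in spleen, 0.343% in cLP and 0.0801% in siLP. Myeloid genes lay at 0.479%, 0.465% and 0.847% in the same order, and endothelial genes at 0.106%, 0.104% and 0.117%. Nearly all of the endothelial sum was Pecam1, which leukocytes also make. In both cLP a libraries the myeloid sum exceeded the stromal one (0.710% against 0.0116% for wild type, 0.754% against 0.236% for CAR-deficient cells). In the wild type siLP library a the stromal sum was 0.911% and the myeloid sum 0.909%. In bulk libraries like these, fewer cells of a type and less RNA per cell cannot be told apart, and the source of the reads was not tested.

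**Figure D1:**
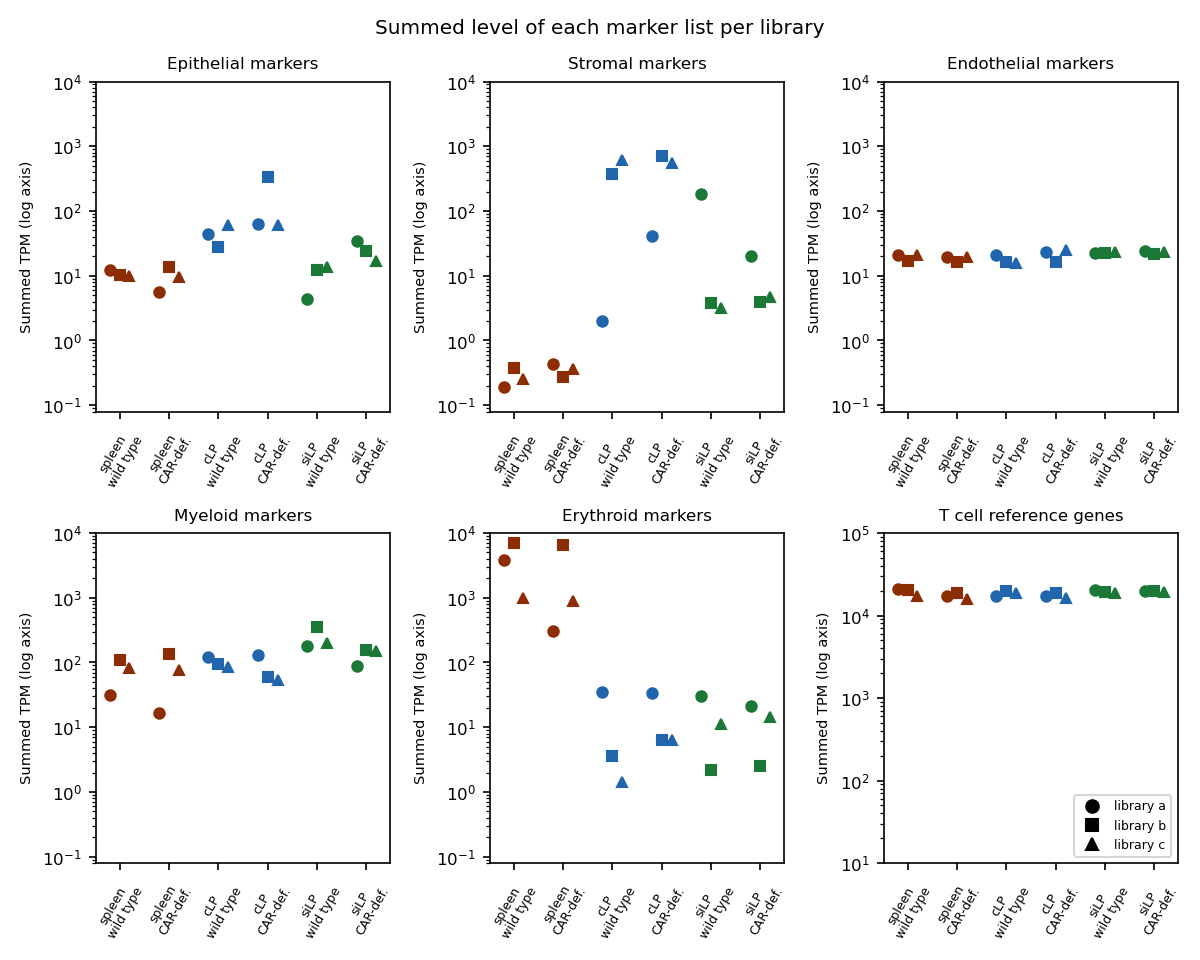
Summed TPM, computed from counts and exon length (log axis), of each marker list and of the T cell reference genes in every library, by organ (colour) and library (symbol). The spleen libraries lie above all gut libraries for erythroid genes, and the T cell reference stays between 15900 and 20680 TPM.

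In the count of genes at 3 or more estimated counts, the cLP libraries held the most markers. They had 24 to 34 of the 45, against 12 to 27 in spleen and 19 to 29 in siLP. Over the 270 pairs of a marker and a library in each organ, 185 reached 3 counts in cLP, 125 in spleen and 132 in siLP. The ranges overlap, and the order depends on the make-up of the list. Of the 11 myeloid genes, 11 reached it in 3 or more libraries of spleen, 9 in cLP and 9 in siLP. For the 6 erythroid genes these were 5, 3 and 3. Genes with any count, over the whole table, numbered 15466 to 18079 in spleen, 15916 to 18466 in cLP and 15722 to 18819 in siLP. A level of 3 counts corresponds to 0.108 to 0.185 CPM, so smaller values below stand on 1 or 2 counts. Among the 9 untested markers, Muc2, Cldn3 and Reg3g had the highest single values, all in cLP.

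**Figure D2:**
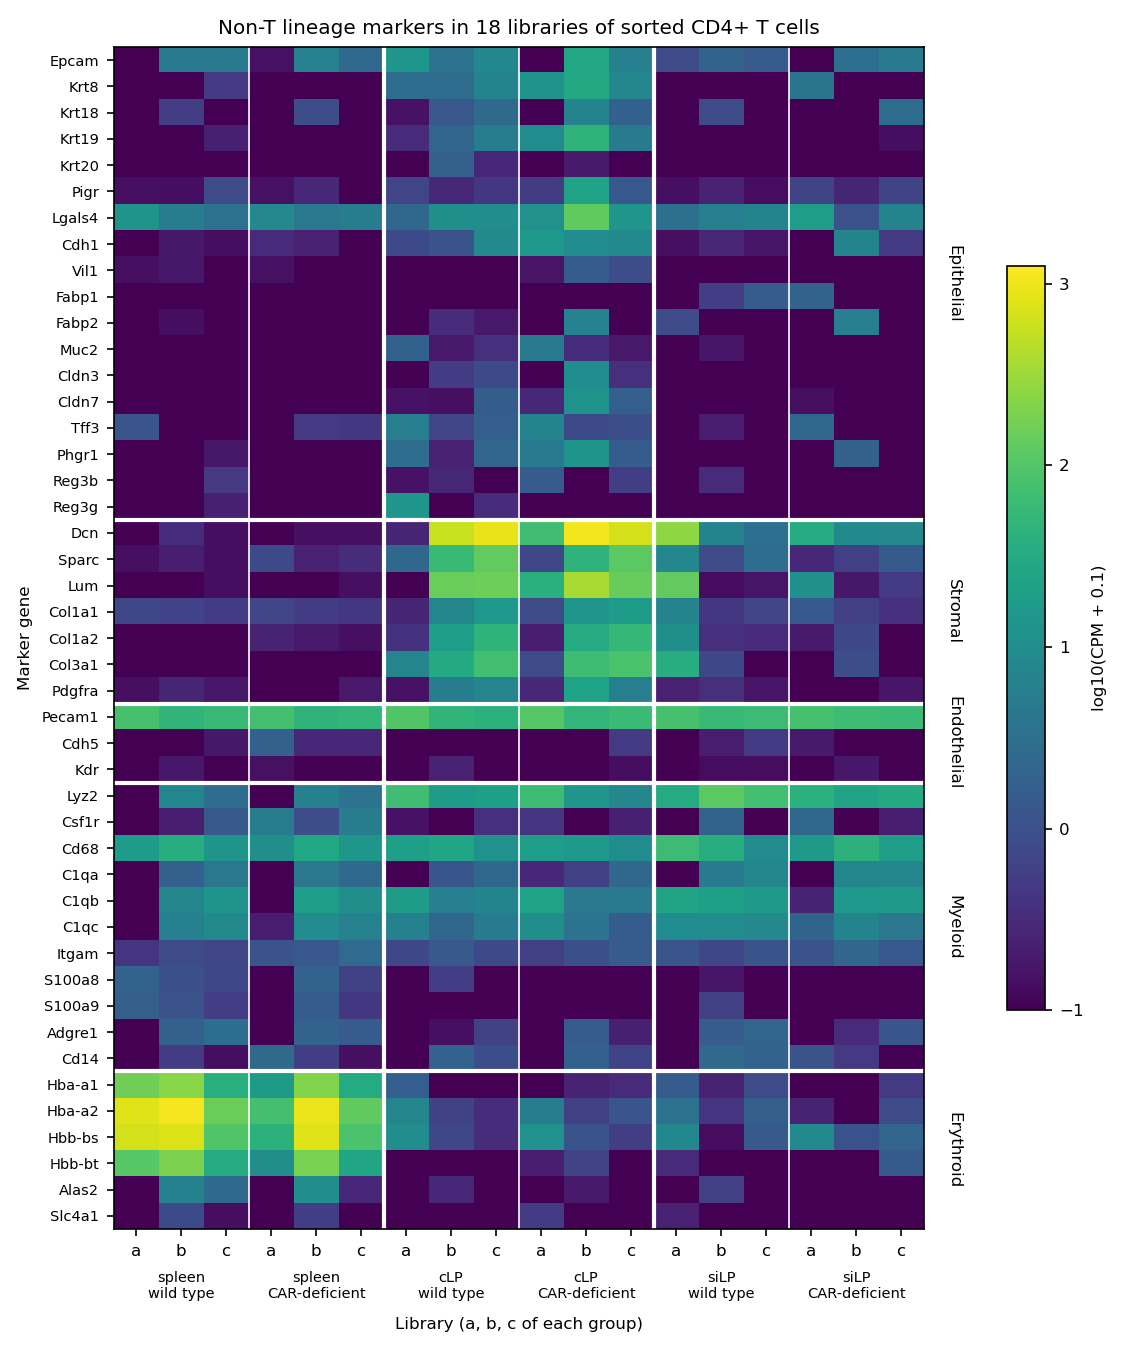
Level of the 45 markers (vertical, by lineage) in the 18 libraries (horizontal, by organ and genotype), as log10(CPM + 0.1). Bright blocks mark the 4 globin genes in spleen and the stromal genes in cLP, while Pecam1, Lgals4 and Cd68 are lit in every library.

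The globin genes were read in every spleen library and come in copies of nearly the same sequence. The alpha genes Hba-a1 (chr11:32283511-32284465) and Hba-a2 (chr11:32296489-32297298) lie 12.0 kb apart on mouse chromosome 11, and the beta genes Hbb-bt (chr7:103812524-103813996) and Hbb-bs (chr7:103826534-103828096) lie 12.5 kb apart on chromosome 7, all in GRCm38. In the GENCODE vM21 transcripts the alpha pair differs at 1 of 429 coding bases (C381T, Hba-a1 first, counted from the start codon) and the beta pair at 1 of 444 (C417T, Hbb-bs first). Of all stretches of 31 bases in the Hba-a1 transcript, 71.3% also occur in Hba-a2, and of those in Hbb-bs 66.9% occur in Hbb-bt. The split of reads within a pair is therefore uncertain. The coding windows of 60 bases around each difference show how little separates the copies, with the differing base in capitals:
Hba-a1: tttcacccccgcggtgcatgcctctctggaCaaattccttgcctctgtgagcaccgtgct
Hba-a2: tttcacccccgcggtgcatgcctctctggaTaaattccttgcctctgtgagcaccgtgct
Hbb-bs: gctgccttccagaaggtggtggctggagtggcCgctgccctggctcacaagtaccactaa
Hbb-bt: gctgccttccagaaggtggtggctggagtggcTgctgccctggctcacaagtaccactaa

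All 4 globin genes were lower in both gut organs than in spleen. Hba-a2, an alpha globin chain of haemoglobin, read 792, 1120 and 150.1 CPM for wild type cells, then 76.4, 955 and 123 CPM for CAR-deficient cells of spleen. The cLP libraries gave 7.15, 0.516 and 0.227 CPM for wild type cells, then 5.36, 0.493 and 1.09 CPM for CAR-deficient cells, and the siLP libraries 3.33, 0.325 and 1.61 CPM for wild type cells, then 0.145, 0 and 0.75 CPM for CAR-deficient cells. Every spleen library stood above every gut library, and within spleen the b libraries were the highest of both genotypes. Pooled over the 6 libraries of an organ, spleen held 250-fold the level of cLP and 540-fold that of siLP, and the fitted log2 differences were -7.72 ± 1.17 (SE), edgeR adjusted p = 0.00151 in cLP and -9.44 ± 1.27 (SE), edgeR adjusted p = 0.00087 in siLP. Without the wild type library a of the gut organ these folds were 409 and 906. The siLP call ended with voom and quality weights (adjusted p = 0.0505). Both comparisons use the same spleen libraries.

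Hbb-bs, a beta globin chain, followed the same order in the counts assigned to it. It read 683, 757 and 97.1 CPM for wild type cells, then 42.6, 779.7 and 86.2 CPM for CAR-deficient cells of spleen. Its cLP values were 9.96, 0.656 and 0.227 CPM for wild type cells, then 11.8, 1.03 and 0.481 CPM for CAR-deficient cells, and its siLP values 7.98, 0.0361 and 1.29 CPM for wild type cells, then 8.86, 0.969 and 2.05 CPM for CAR-deficient cells. No gut library reached the lowest spleen library, and 3 of the 4 gut a libraries of Hba-a2 and all 4 of Hbb-bs were the highest of their group. The log2 difference was -6.63 ± 1.36 (SE), edgeR adjusted p = 0.0144 in cLP and -6.82 ± 1.37 (SE), edgeR adjusted p = 0.0225 in siLP. In siLP that call ended when any 1 of 8 libraries was left out, spleen wild type a or b, spleen CAR-deficient b, or any siLP library except wild type a, with adjusted p from 0.0513 to 0.101 in edgeR, and in cLP when library b of either cLP group was left out. The siLP call also ended with voom and quality weights (adjusted p = 0.0571).

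Fewer counts were assigned to the other copy of each pair, a split that is uncertain for sequences this alike. Hba-a1 read 165, 238 and 37.8 CPM for wild type cells, then 16.8, 213 and 32.8 CPM for CAR-deficient cells of spleen and at most 1.58 CPM in the gut libraries. Hbb-bt read 108, 194 and 33.1 CPM for wild type cells, then 10.5, 187 and 25.9 CPM for CAR-deficient cells of spleen and at most 1.34 CPM in the gut libraries. Both were separated from every gut library. The log2 differences for Hba-a1 were -8.75 ± 1.28 (SE), edgeR adjusted p = 0.00114 in cLP and -8.39 ± 1.25 (SE), edgeR adjusted p = 0.00211 in siLP, and for Hbb-bt they were -11.27 ± 1.65 (SE), edgeR adjusted p = 0.00184 in cLP and -8.95 ± 1.39 (SE), edgeR adjusted p = 0.00445 in siLP. In TPM from the counts as assigned, whose split within a pair is uncertain, Hba-a1 stood within each spleen library at 0.171 to 0.219 of Hba-a2, Hbb-bt at 0.173 to 0.372 of Hbb-bs, and Hbb-bs at 0.485 to 0.749 of Hba-a2, while the level of Hba-a2 itself ran from 76.4 to 1120 CPM.

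Other red cell genes were far lower. Alas2, the first enzyme of haem synthesis in red cell precursors, read 0, 6.3 and 2.4 CPM for wild type cells, then 0, 10.2 and 0.181 CPM for CAR-deficient cells of spleen and at most 0.505 CPM in the gut libraries. It was at 0 in both spleen a libraries, in which Hba-a2 read 792 and 76.4 CPM. Its log2 difference did not pass the threshold in cLP (-5.93 ± 1.96 (SE), edgeR adjusted p = 0.129) or siLP (-6.65 ± 2.08 (SE), edgeR adjusted p = 0.25), while the fit with the column ending as a block called it lower in cLP. Slc4a1, the anion exchanger of the red cell membrane, had 29 counts in all spleen libraries together, 7 in cLP and 3 in siLP.

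With the 6 libraries a left out, all 4 globin genes were still called lower in both gut organs. Lower calls made up 0.35% of all genes tested in cLP against spleen and 0.0403% in siLP against spleen, and 4 of the 5 tested erythroid markers were called in each. Separation of all 6 spleen libraries above all 6 libraries of the other organ held for 1.16% of genes against cLP and 0.37% against siLP, and for the 4 globin genes in both.

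Stromal genes were higher in cLP than in spleen, and all 7 passed the threshold. Dcn, the collagen-binding proteoglycan decorin, read 0, 0.245 and 0.0421 CPM for wild type cells, then 0, 0.047 and 0.0453 CPM for CAR-deficient cells of spleen. Levels in the colon came to 0.169, 565 and 921 CPM for wild type cells, then 70.2, 1049 and 692 CPM for CAR-deficient cells, and those in the small intestine to 257, 7.04 and 3.05 CPM for wild type cells, then 34.8, 9.15 and 8.44 CPM for CAR-deficient cells. The wild type cLP library a lay among the spleen values, while the other cLP libraries exceeded every spleen library by far, and in siLP every library lay above spleen. The pooled level was 8607-fold higher in cLP than in spleen and 711-fold higher in siLP, where 5711 of the 7140 counts came from the wild type library a, without which it was 168-fold. Without the wild type spleen library b, which held 6 of the 9 spleen counts, the folds were 21040 (counting interval 7201 to 102000) and 1738 (595 to 8432). The log2 difference was 13.09 ± 1.98 (SE), edgeR adjusted p = 0.00147 in cLP and 9.30 ± 1.82 (SE), edgeR adjusted p = 0.0187 in siLP. The siLP call ended without any 1 of the 6 spleen libraries (adjusted p from 0.0651 to 0.0958 in edgeR) and with voom and quality weights (0.403).

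Lum, the keratan sulfate proteoglycan lumican, lies 47.0 kb from Dcn on chromosome 10 (Dcn chr10:97479609-97518143, Lum chr10:97565128-97572703, GRCm38). It read 0, 0 and 0.0421 CPM for wild type cells, then 0, 0 and 0.0453 CPM for CAR-deficient cells of spleen. In cLP it read 0, 144 and 159 CPM for wild type cells, then 39.9, 362 and 141 CPM for CAR-deficient cells, and in siLP 132, 0.0361 and 0.0717 CPM for wild type cells, then 11.4, 0.0843 and 0.395 CPM for CAR-deficient cells. Lum was thus missing from the cLP library in which Dcn was lowest, and in siLP it exceeded 1 CPM in the a libraries alone. Its pooled level was 9759-fold that of spleen, with a counting interval from 2701 to 80590 since spleen held 2 counts, 1 in each library c, without which the ratio was 16020 (wild type) or 16260 (CAR-deficient), and its log2 difference was 12.67 ± 2.57 (SE), edgeR adjusted p = 0.0134 in cLP.

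The fibrillar collagen genes were also higher in cLP. Col3a1, the chain of type III collagen, was at 0 in all 6 spleen libraries. The cLP libraries gave 7.37, 31.8 and 72.2 CPM for wild type cells, then 0.801, 66.1 and 86.7 CPM for CAR-deficient cells, and the siLP libraries 36, 0.686 and 0 CPM for wild type cells, then 0, 0.843 and 0 CPM for CAR-deficient cells. Every cLP library was above every spleen library, with a pooled level at least 2098-fold higher, and the log2 difference was 12.92 ± 2.58 (SE), edgeR adjusted p = 0.0198. Col1a2, a chain of type I collagen, read 0.281, 19.4 and 46.5 CPM for wild type cells, then 0.123, 32.9 and 54.1 CPM for CAR-deficient cells of cLP and 10.9, 0.253 and 0.215 CPM for wild type cells, then 0.0968, 0.674 and 0 CPM for CAR-deficient cells of siLP. Spleen reached at most 0.158 CPM of Col1a2, above the 0.123 CPM of the CAR-deficient cLP library a, and the log2 difference was 10.04 ± 2.02 (SE), edgeR adjusted p = 0.0157 in cLP. Col1a1, the other chain of type I collagen, read 0.645, 0.572 and 0.421 CPM for wild type cells, then 0.632, 0.423 and 0.362 CPM for CAR-deficient cells of spleen and 0.169, 7.55 and 15.2 CPM for wild type cells, then 0.801, 13.4 and 18.2 CPM for CAR-deficient cells of cLP. In siLP Col1a1 read 6.76, 0.361 and 0.61 CPM for wild type cells, then 1.26, 0.506 and 0.276 CPM for CAR-deficient cells. Here the wild type cLP library a lay below all spleen libraries, and the log2 difference was 4.15 ± 1.03 (SE), edgeR adjusted p = 0.04.

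Sparc, a collagen-binding matricellular protein, read 0.0461, 0.123 and 0.0421 CPM for wild type cells, then 0.738, 0.141 and 0.227 CPM for CAR-deficient cells of spleen. Its cLP values were 2.36, 57.5 and 129 CPM for wild type cells, then 0.678, 45.9 and 118 CPM for CAR-deficient cells, and its siLP values 7.89, 0.794 and 2.87 CPM for wild type cells, then 0.194, 0.506 and 1.34 CPM for CAR-deficient cells. The CAR-deficient cLP library a fell within the spleen range and the other cLP libraries above it, and the log2 difference was 8.45 ± 1.29 (SE), edgeR adjusted p = 0.00159 in cLP. Pdgfra, a growth factor receptor of fibroblasts, read 0.0563, 5.25 and 7.21 CPM for wild type cells, then 0.185, 23.7 and 5.47 CPM for CAR-deficient cells of cLP, at most 0.164 CPM in spleen and at most 0.253 CPM in siLP. Its log2 difference was 6.69 ± 1.36 (SE), edgeR adjusted p = 0.0136 in cLP.

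The a libraries stood apart in the sum of the stromal genes, low in cLP and high in siLP. Summed over the 7 genes, the cLP libraries read 10.4, 831 and 1351 CPM for wild type cells, then 113, 1592 and 1116 CPM for CAR-deficient cells, the a library being the lowest. The siLP libraries read 450.6, 9.42 and 6.89 CPM for wild type cells, then 47.7, 11.8 and 10.5 CPM for CAR-deficient cells, the a library being the highest. Spleen libraries read 0.632 to 1.53 CPM. In the CAR-deficient siLP library a the sum was mostly Dcn and Lum (34.8 and 11.4 CPM). Sparc read 0.194 CPM there, Col1a2 0.0968 CPM, and Col3a1 and Pdgfra 0 CPM, none of them the highest of its group. Without the 6 libraries a, all 7 stromal genes were still called higher in cLP and Dcn still in siLP. Whether the a libraries differ in handling was not tested.

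**Figure D3:**
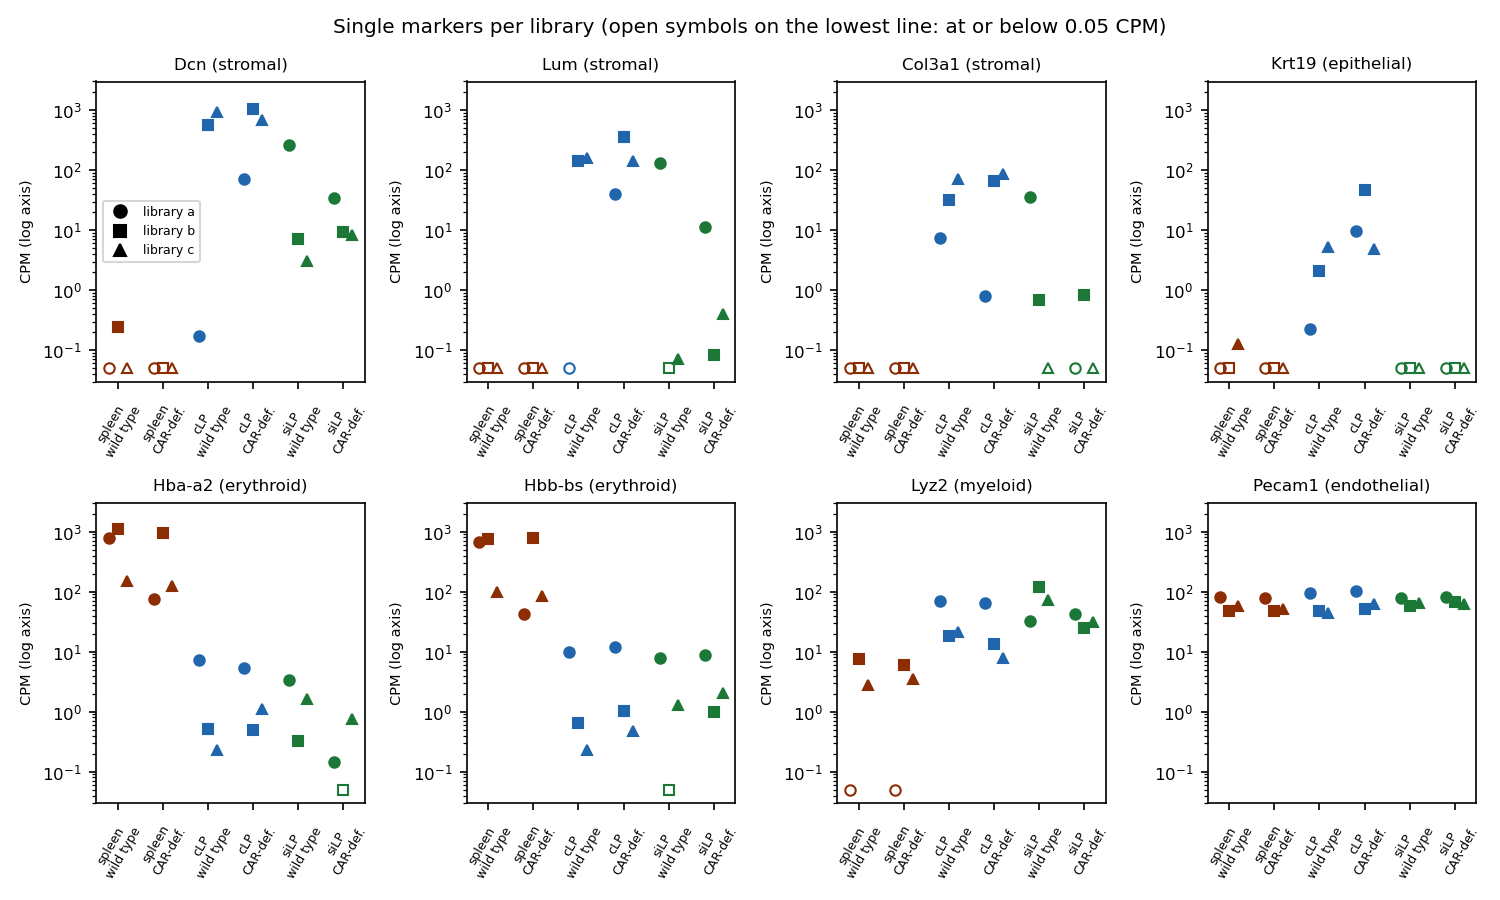
CPM (log axis) of 8 single markers in every library, by organ (colour) and library (symbol), with open symbols for values at or below 0.05 CPM. Globin genes are high in spleen, stromal genes and Krt19 in cLP, Lyz2 in both gut organs, and Pecam1 is level at 43.6 to 104 CPM.

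Epithelial genes were higher in cLP than in spleen for 5 of the 12 tested, Krt8, Krt19, Cdh1, Cldn7 and Phgr1. Krt19, a keratin of simple epithelium, read 0, 0 and 0.127 CPM for wild type cells, then 0 CPM for all 3 CAR-deficient libraries of spleen. Levels in the colon came to 0.225, 2.06 and 5.22 CPM for wild type cells, then 9.49, 46 and 4.77 CPM for CAR-deficient cells, and those in the small intestine to 0 CPM for all 3 wild type libraries, then 0, 0 and 0.0394 CPM for CAR-deficient cells. Every cLP library was above every library of both other organs. The pooled level was 497-fold that of spleen (counting interval 170 to 2415), and 187-fold (63.7 to 912) without the CAR-deficient cLP library b, which held 934 of the 1360 counts. The log2 difference was 8.75 ± 1.40 (SE), edgeR adjusted p = 0.00604.

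Krt8, the keratin that pairs with Krt18, read 2.76, 2.72 and 6.89 CPM for wild type cells, then 12.3, 29.5 and 7.92 CPM for CAR-deficient cells of cLP, at most 0.379 CPM in spleen, and in siLP 3.68 CPM in the CAR-deficient library a and 0 in the other libraries. All cLP libraries exceeded all spleen libraries, and the log2 difference was 8.24 ± 1.86 (SE), edgeR adjusted p = 0.0363. Krt18, which lies 23.7 kb from Krt8 on chromosome 15, read up to 6.61 CPM in cLP and its log2 difference was 3.14 ± 1.84 (SE), edgeR adjusted p = 0.484. Cdh1, the adhesion protein E-cadherin, read 0, 0.0818 and 0.0421 CPM for wild type cells, then 0.211, 0.141 and 0 CPM for CAR-deficient cells of spleen. In cLP it read 0.732, 1.03 and 8.66 CPM for wild type cells, then 15.2, 9.66 and 8.66 CPM for CAR-deficient cells, and in siLP 0.0451, 0.18 and 0.0717 CPM for wild type cells, then 0, 7.08 and 0.395 CPM for CAR-deficient cells. Its cLP libraries lay above all spleen libraries, with a log2 difference of 6.36 ± 1.34 (SE), edgeR adjusted p = 0.016.

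Cldn7, a claudin of cell junctions, was at 0 in all 6 spleen libraries. The cLP libraries gave 0.0563, 0.0469 and 1.54 CPM for wild type cells, then 0.185, 12 and 1.66 CPM for CAR-deficient cells, and the siLP libraries 0 CPM for all 3 wild type libraries, then 0.0484, 0 and 0 CPM for CAR-deficient cells. Every cLP library held some, though wild type a and b held 1 count each. The pooled level was at least 117-fold higher than in spleen, or at least 33.9-fold without the CAR-deficient library b. That library held 243 of the 320 counts. The log2 difference was 8.16 ± 1.76 (SE), edgeR adjusted p = 0.0391. That call ended without the a libraries and with the column ending as a block. Phgr1, a gene of the intestinal epithelium, read 2.87, 0.141 and 2.09 CPM for wild type cells, then 4.68, 13.2 and 1.44 CPM for CAR-deficient cells of cLP and 0 CPM for all 3 wild type libraries, then 0, 1.73 and 0 CPM for CAR-deficient cells of siLP, against at most 0.0843 CPM in spleen. No cLP library overlapped spleen, the pooled level was 261-fold higher (counting interval 71.9 to 2162), or 138-fold (37.7 to 1146) without the CAR-deficient cLP library b and at least 143-fold without the wild type spleen library c, and the log2 difference was 7.90 ± 1.81 (SE), edgeR adjusted p = 0.0377, a call that also ended without the a libraries.

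The remaining epithelial genes with a mean of at least 1 CPM did not pass the threshold in either gut organ with edgeR. Other tools called some of them higher in cLP, Pigr with DESeq2, and Tff3 with voom and quality weights. The latter also called Krt18, whose mean was 0.939 CPM. Lgals4, the lectin galectin 4 of intestinal epithelium, read 12.9, 5.44 and 3.25 CPM for wild type cells, then 8.38, 4.32 and 5.3 CPM for CAR-deficient cells of spleen. Its cLP values were 2.36, 10.7 and 10.2 CPM for wild type cells, then 12, 126 and 13.8 CPM for CAR-deficient cells, and its siLP values 3.11, 5.7 and 6.88 CPM for wild type cells, then 19.4, 0.927 and 6.63 CPM for CAR-deficient cells. It was present in every library of every organ, the 125.9 CPM of the CAR-deficient cLP library b standing apart, and its log2 difference was 1.59 ± 0.71 (SE), edgeR adjusted p = 0.298 in cLP. Epcam, an adhesion molecule of epithelial cells, read 0, 4.42 and 4.43 CPM for wild type cells, then 0.0527, 6.44 and 2.4 CPM for CAR-deficient cells of spleen. Levels in the colon came to 14.3, 3.33 and 8.21 CPM for wild type cells, then 0, 29.1 and 5.95 CPM for CAR-deficient cells, and those in the small intestine to 0.766, 1.95 and 1.4 CPM for wild type cells, then 0, 3.04 and 4.73 CPM for CAR-deficient cells. The organs overlapped, with a log2 difference of 1.76 ± 1.34 (SE), edgeR adjusted p = 0.633 in cLP, and the CAR-deficient cLP library a had no Epcam count beside 15.2 CPM of Cdh1.

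Pigr, which carries immunoglobulin A across the epithelium, read 0.0461, 0.0409 and 0.801 CPM for wild type cells, then 0.0527, 0.188 and 0 CPM for CAR-deficient cells of spleen. In cLP it read 0.619, 0.188 and 0.363 CPM for wild type cells, then 0.431, 23.1 and 1.23 CPM for CAR-deficient cells, and in siLP 0.0451, 0.144 and 0.0359 CPM for wild type cells, then 0.581, 0.169 and 0.592 CPM for CAR-deficient cells. A single library, CAR-deficient cLP b, exceeded 2 CPM, and the log2 difference was 3.49 ± 1.11 (SE), edgeR adjusted p = 0.105 in cLP. Tff3, the goblet cell trefoil peptide, read 1.1, 0 and 0 CPM for wild type cells, then 0, 0.376 and 0.362 CPM for CAR-deficient cells of spleen. The cLP libraries gave 5.51, 0.609 and 1.59 CPM for wild type cells, then 6.66, 0.739 and 0.875 CPM for CAR-deficient cells, and the siLP libraries 0, 0.108 and 0 CPM for wild type cells, then 2.32, 0 and 0 CPM for CAR-deficient cells. The 2 cLP a libraries were the highest, and the log2 difference was 3.12 ± 1.55 (SE), edgeR adjusted p = 0.37 in cLP.

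Less abundant epithelial genes differed in where they were read. Fabp1, a fatty acid binding protein of enterocytes and liver, was at 0 in all spleen and cLP libraries and read 0.469, 1.43 and 1.89 CPM in 3 siLP libraries, a pooled level at least 27.5-fold that of spleen, with a fitted log2 difference of 6.82 ± 2.20 (SE), edgeR adjusted p = 0.351. Fabp2, its intestinal relative, read up to 6.46 CPM in cLP and 5.48 CPM in siLP, with log2 differences of 5.57 ± 2.34 (SE), edgeR adjusted p = 0.264 and 6.03 ± 2.35 (SE), edgeR adjusted p = 0.4. Muc2, the main mucin of goblet cells, read 1.8, 0.0937 and 0.272 CPM for wild type cells, then 4.99, 0.246 and 0.0875 CPM for CAR-deficient cells of cLP, 0 in spleen and at most 0.0722 CPM in siLP. Reg3g, an antibacterial lectin, read 14.3 CPM in the wild type cLP library a and at most 0.227 CPM elsewhere. Reg3b, a related lectin, reached 1.48 CPM, Cldn3 9.91 CPM, Krt20 1.69 CPM and Vil1 1.48 CPM, all in cLP. Cldn3 is a claudin, Krt20 a keratin of mature gut epithelium and Vil1 the microvillus protein villin.

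Of all genes tested, 2.72% were called higher in cLP than in spleen, against 12 of the 36 tested markers, and 2.31% had every cLP library above every spleen library, against Krt8, Krt19, Cdh1, Cldn7, Phgr1, Col3a1, Lyz2 and the untested Muc2. The lowest cLP library held 1 count of Cldn7 and 2 of Muc2, with 0 in spleen. The 36 include genes that can pass the filter through cLP alone, from a list chosen with earlier results known. Shares and medians of the markers, here and in the other comparisons, therefore describe the list and do not test it. The median fitted log2 difference was 10.04 for the 7 stromal genes, 4.53 for the 12 epithelial genes, 0.15 for the 1 endothelial gene, -0.23 for the 11 myeloid genes and -7.72 for the 5 erythroid genes, against 0.00 for all genes tested. Where an organ has no counts the fitted value depends on a prior count. With pooled ratios, and lower bounds where an organ held 0 counts, the medians were 9.26, 6.57 (over 11 genes), 0.12, -0.28 and -7.97. Leaving out any 1 spleen library left 7 to 9 of the 16 cLP calls, and leaving out library b of either cLP group left 11. Krt19, Dcn, Sparc, Hba-a1, Hba-a2 and Hbb-bt kept theirs whichever library was left out. With wild type libraries alone the single call was Hbb-bt, and with CAR-deficient libraries alone it was Dcn.

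Of the 3 endothelial markers 1 was tested, and it did not pass the threshold in either gut organ. Pecam1, an adhesion molecule of endothelium that leukocytes also make, read 80.8, 47.4 and 57.9 CPM for wild type cells, then 79.1, 46.8 and 52.2 CPM for CAR-deficient cells of spleen. Its cLP values were 96.3, 47.9 and 43.5 CPM for wild type cells, then 104, 50.5 and 62.4 CPM for CAR-deficient cells, and its siLP values 79.5, 58.7 and 64.9 CPM for wild type cells, then 80.8, 66.2 and 61.5 CPM for CAR-deficient cells. The organs overlapped throughout, and the a library was the highest of its group in all 6 groups. Its log2 difference was 0.15 ± 0.25 (SE), edgeR adjusted p = 0.884 in cLP and 0.18 ± 0.25 (SE), edgeR adjusted p = 0.915 in siLP. Cdh5, the cadherin of endothelial junctions, reached 1.69 CPM in the CAR-deficient spleen library a and at most 0.394 CPM elsewhere, and Kdr, a receptor for vascular growth factor, at most 0.141 CPM in any library.

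Myeloid markers as a list were read in all organs, though not each gene in every organ, and none of the 11 passed the threshold in edgeR with all libraries. Lyz2, the lysozyme of macrophages and neutrophils, read 0, 7.44 and 2.78 CPM for wild type cells, then 0, 6.06 and 3.53 CPM for CAR-deficient cells of spleen. Levels in the colon came to 70.6, 18.1 and 21.3 CPM for wild type cells, then 64.2, 13.7 and 7.92 CPM for CAR-deficient cells, and those in the small intestine to 32.9, 119 and 71.7 CPM for wild type cells, then 42.2, 24.6 and 31.5 CPM for CAR-deficient cells. Every gut library was above every spleen library, in both organs. The pooled level was 8.70-fold that of spleen in cLP and 16.3-fold in siLP, and the log2 difference was 3.29 ± 0.99 (SE), edgeR adjusted p = 0.0856 in cLP and 3.90 ± 1.01 (SE), edgeR adjusted p = 0.114 in siLP. Lyz2 was called higher in both organs by DESeq2, by voom with quality weights, without the filter and without the a libraries. Its close relative Lyz1, a Paneth cell lysozyme whose reads the counting could have shared, read 14.8 CPM in the wild type siLP library c and at most 0.318 CPM elsewhere.

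The complement genes C1qa, C1qb and C1qc form a cluster on chromosome 4 and encode the chains of C1q, made by tissue macrophages. C1qb read 0, 7.2 and 13.4 CPM for wild type cells, then 0, 19.3 and 10.7 CPM for CAR-deficient cells of spleen. In cLP it read 17.8, 5.62 and 6.85 CPM for wild type cells, then 23.5, 4.19 and 4.46 CPM for CAR-deficient cells, and in siLP 25.1, 21.6 and 16.5 CPM for wild type cells, then 0.145, 15.2 and 16.1 CPM for CAR-deficient cells. Both spleen a libraries were at 0, and in siLP the CAR-deficient a library lay far under the others. C1qc read 0, 5.76 and 8.72 CPM for wild type cells, then 0.105, 9.35 and 6.52 CPM for CAR-deficient cells of spleen. The cLP libraries gave 6.19, 2.16 and 4.99 CPM for wild type cells, then 10.5, 3.6 and 1.44 CPM for CAR-deficient cells, and the siLP libraries 9.82, 9.67 and 8.28 CPM for wild type cells, then 2.03, 7.04 and 4.14 CPM for CAR-deficient cells. It was at or near 0 in the spleen a libraries as well, and its organs overlapped. In the 15 libraries with at least 3 CPM of C1qb, the ratio of C1qc to C1qb in TPM ran from 0.145 to 0.484. C1qa read 0, 1.68 and 4.13 CPM for wild type cells, then 0, 4.14 and 2.4 CPM for CAR-deficient cells of spleen. Its cLP values were 0, 1.17 and 2.22 CPM for wild type cells, then 0.185, 0.493 and 2.23 CPM for CAR-deficient cells, and its siLP values 0, 4.98 and 7.6 CPM for wild type cells, then 0, 7.54 and 7.57 CPM for CAR-deficient cells. The a libraries of all groups held at most 0.185 CPM of C1qa, also in the 3 gut a libraries in which C1qb read 17.8, 23.5 and 25.1 CPM. Log2 differences against spleen were -0.96 ± 1.50 (SE), edgeR adjusted p = 0.869 for C1qa, 0.33 ± 1.15 (SE), edgeR adjusted p = 0.954 for C1qb and -0.08 ± 0.95 (SE), edgeR adjusted p = 0.992 for C1qc in cLP. Without the 6 libraries a, C1qb was called lower in cLP than in spleen.

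Cd68, a lysosomal protein of macrophages, read 17.9, 36.2 and 13.2 CPM for wild type cells, then 10.4, 28.9 and 14.7 CPM for CAR-deficient cells of spleen. Levels in the colon came to 20.6, 26.7 and 11.7 CPM for wild type cells, then 19.5, 15.5 and 9.58 CPM for CAR-deficient cells, and those in the small intestine to 65.2, 35.6 and 9.57 CPM for wild type cells, then 16.7, 42.3 and 20.04 CPM for CAR-deficient cells. It was read in every library with overlapping organs, and its log2 difference was -0.23 ± 0.45 (SE), edgeR adjusted p = 0.9 in cLP and 0.63 ± 0.45 (SE), edgeR adjusted p = 0.717 in siLP. Itgam, the CD11b integrin chain, read 0.322, 0.777 and 0.632 CPM for wild type cells, then 1, 1.18 and 2.58 CPM for CAR-deficient cells of spleen. In cLP it read 0.675, 1.31 and 0.726 CPM for wild type cells, then 0.493, 0.887 and 1.4 CPM for CAR-deficient cells, and in siLP 1.13, 0.649 and 1.08 CPM for wild type cells, then 1.02, 2.15 and 1.26 CPM for CAR-deficient cells. Its values overlapped in all organs, with log2 differences of -0.06 ± 0.54 (SE), edgeR adjusted p = 0.984 and 0.30 ± 0.53 (SE), edgeR adjusted p = 0.94.

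The myeloid genes of lower level were read in fewer libraries. S100a8 and S100a9, the calprotectin chains of neutrophils, reached 1.84 and 1.61 CPM in spleen, and at most 0.469 and 0.505 CPM in the gut libraries. S100a9 had 0 counts in cLP, and S100a8 had 2 counts over all siLP libraries. Their log2 differences in cLP were -4.98 ± 1.57 (SE), edgeR adjusted p = 0.121 for S100a8 and -7.15 ± 1.85 (SE), edgeR adjusted p = 0.0727 for S100a9, and in siLP -6.19 ± 1.63 (SE), edgeR adjusted p = 0.159 for S100a8 and -4.67 ± 1.58 (SE), edgeR adjusted p = 0.346 for S100a9. Csf1r, the growth factor receptor of macrophages, reached 5.38 CPM in spleen, 0.308 CPM in cLP and 2.28 CPM in siLP. Adgre1, which encodes F4/80, reached 2.91 CPM, 1.38 CPM and 2.08 CPM in the same order, and Cd14, a receptor for bacterial lipopolysaccharide, 2.53 CPM, 1.83 CPM and 2.49 CPM. None of these 5 passed the threshold in edgeR. With voom and quality weights S100a8 and S100a9 were called lower in cLP and S100a8 in siLP, and without the filter S100a9 was called lower in cLP.

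In siLP against spleen, 1 of the 36 tested markers was called higher, Dcn, where 0.807% of all genes were, and 4 were called lower. Every siLP library exceeded every spleen library for Dcn and Lyz2, where 1.83% of all genes did. The median fitted log2 difference was 5.37 for stromal, 1.07 for epithelial, 0.33 for myeloid and -8.40 for erythroid genes, against -0.01 for all genes tested, and with pooled ratios 5.35, 2.20 (over 10 genes), 0.41 and -8.03. DESeq2 also called Sparc, Col3a1, Col1a2, Lum and Lyz2 higher, 10 markers in all. With the libraries of 1 genotype alone edgeR called none.

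**Figure D4:**
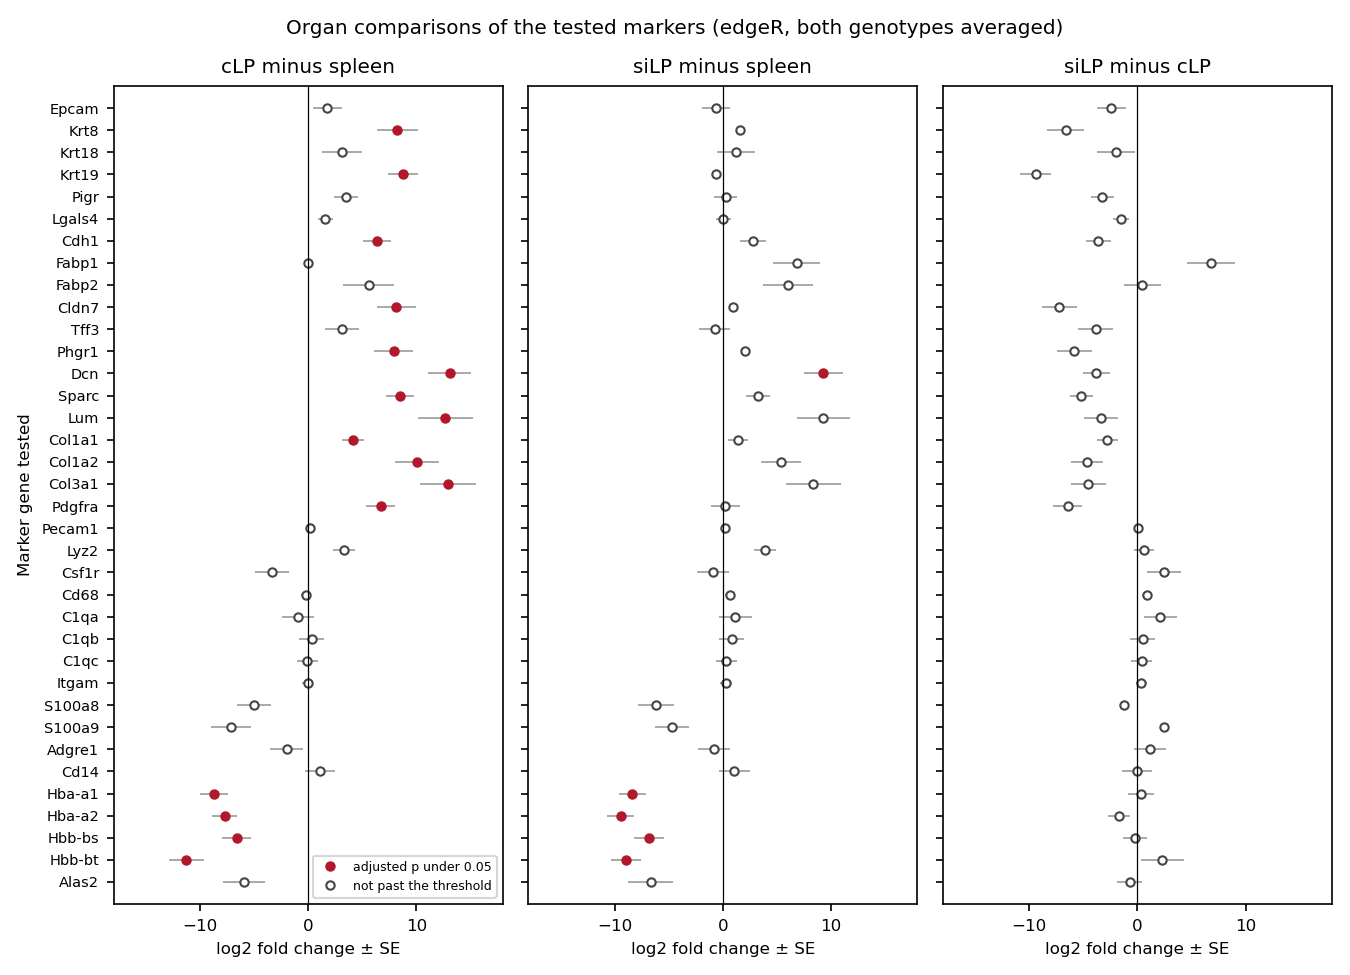
Fitted log2 fold change with its standard error for the 36 tested markers in 3 organ comparisons, filled where the edgeR adjusted p is under 0.05. Error bars are left off for 6 points that compare groups with hardly any counts and whose standard error exceeds 10.

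Between the gut organs no marker passed the threshold in edgeR, as for all genes tested (0% higher and 0% lower), although 16 of the 36 tested markers had an unadjusted p under 0.05, against 1240 of the 14876 genes. The smallest p belonged to Krt19, at -9.40 ± 1.43 (SE), edgeR adjusted p = 0.118, Pdgfra, at -6.46 ± 1.34 (SE), edgeR adjusted p = 0.173, and Sparc, at -5.17 ± 1.08 (SE), edgeR adjusted p = 0.173, all lower in siLP. Every cLP library was above every siLP library for Krt19 and the untested Muc2, where 0.39% of genes showed this. For Muc2 the lowest cLP library (CAR-deficient c) and the highest siLP library (wild type b) each held 2 counts. That separation comes from library size alone. All 7 stromal genes had a fitted difference below 0, with a median of -4.54 (pooled -3.60), and the 12 epithelial genes a median of -3.42 (pooled -2.65), against -0.02 for all genes tested. For the 5 erythroid genes the fitted median was -0.19 and the pooled one 0.63, which differ in sign. The count depended on the tool and libraries: DESeq2 called 7 markers, all lower in siLP, voom with quality weights 12, and edgeR without the a libraries 11, of which C1qb and Lyz2 were higher in siLP. Over all genes these fits called 214, 434 and 162.

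No marker passed the threshold between CAR-deficient and wild type libraries in edgeR. Averaged over the organs, 0 of 36 passed, where 0.00672% of genes were called higher and 0.00672% lower, and 1 marker had an unadjusted p under 0.05, against 859 of the 14876 genes. That was Cdh1, at 2.53 ± 0.95 (SE), edgeR adjusted p = 0.717, followed by S100a8 at -2.60 ± 1.20 (SE), edgeR adjusted p = 0.859 and Hba-a1 at -1.70 ± 0.88 (SE), edgeR adjusted p = 0.897. Within an organ 0% of all genes were called in either direction. The smallest p in spleen belonged to Itgam, at 1.45 ± 0.76 (SE), edgeR adjusted p = 1, Krt8, at -4.56 ± 2.72 (SE), edgeR adjusted p = 1, and Krt19, at -3.10 ± 1.99 (SE), edgeR adjusted p = 1, of which the keratins rest on the wild type spleen library c alone. In cLP it belonged to Pigr, at 4.39 ± 1.60 (SE), edgeR adjusted p = 1, Lgals4, at 2.70 ± 1.05 (SE), edgeR adjusted p = 1, and Krt19, at 3.00 ± 1.41 (SE), edgeR adjusted p = 1, each with its highest value in the CAR-deficient cLP library b. In siLP it belonged to Krt8, at 7.77 ± 2.70 (SE), edgeR adjusted p = 1, Cdh1, at 4.56 ± 1.73 (SE), edgeR adjusted p = 1, and Phgr1, at 6.70 ± 2.49 (SE), edgeR adjusted p = 1, with Krt8 read in the CAR-deficient siLP library a alone and Phgr1 in library b alone. At an unadjusted p under 0.05 there were 0 markers in spleen, 2 in cLP and 4 in siLP, against 290, 363 and 641 of the 14876 genes. Of the 12 epithelial genes, 3 were fitted above 0 in spleen (median -0.41), 11 in cLP (1.96) and 11 in siLP (2.18). Of the 7 stromal genes 3, 6 and 0 were (medians 0.00, 0.46 and -2.48). For all genes tested the medians were 0.01, -0.02 and 0.00. The epithelial sum in cLP was highest in the CAR-deficient library b (314 CPM). The stromal sum in siLP was highest in the wild type library a (450.6 CPM). These leanings were not tested. When the genotype effects of 2 organs were set against each other, 0% of genes were called in each of the 3 contrasts, with 2, 3 and 0 markers at an unadjusted p under 0.05 for cLP against spleen, siLP against spleen and siLP against cLP. Over the 14876 genes 184, 337 and 358 did so. The smallest p in each belonged to Pigr, at 6.20 ± 2.19 (SE), edgeR adjusted p = 1, to Krt8, at 12.33 ± 3.82 (SE), edgeR adjusted p = 1, and to Col3a1, at -5.87 ± 3.00 (SE), edgeR adjusted p = 1. DESeq2 and voom with quality weights also called 0 markers in the average and in each organ. With 3 libraries a group and a biological coefficient of variation of 0.791, a difference that did not pass is not shown to be absent.

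Other genes of the same tissues were counted from lists written beside the markers, with earlier results of these data known. Beside the counts for these lists, 2.72% of all genes tested were higher and 0.35% lower in cLP than in spleen. In siLP these shares were 0.807% and 0.0403%. Of 16 tested genes of other stroma and muscle, 10 were higher in cLP and 0 in siLP. Those with the smallest p in cLP were Serping1, the C1 inhibitor, at 10.95 ± 1.89 (SE), edgeR adjusted p = 0.00627, the matrix protein Postn at 13.26 ± 2.07 (SE), edgeR adjusted p = 0.00905, and the proteoglycan Bgn at 9.04 ± 1.75 (SE), edgeR adjusted p = 0.00972. Postn read 9.12, 43.6 and 116 CPM for wild type cells, then 0, 54.3 and 108 CPM for CAR-deficient cells of cLP and 0 in every spleen library. The cLP a libraries were again the lowest of their groups for Postn and Bgn.

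Some secretory and absorptive epithelial genes were called in each gut organ. Of 6 tested Paneth, goblet and endocrine genes, 3 were higher in cLP: Guca2a, which encodes guanylin, at 7.58 ± 1.22 (SE), edgeR adjusted p = 0.00627, the goblet cell peptide Spink4 at 10.39 ± 1.74 (SE), edgeR adjusted p = 0.0131, and Agr2, a mucin folding factor, at 10.93 ± 2.11 (SE), edgeR adjusted p = 0.0170. In siLP 1 was higher, the Paneth cell defensin Defa24, at 7.96 ± 1.25 (SE), edgeR adjusted p = 0.0316. Defa24 read 1.62, 0.613 and 0.143 CPM for wild type cells, then 4.36, 1.05 and 1.97 CPM for CAR-deficient cells of siLP and 0 in all 12 other libraries, but its family shares sequence and the counting could have split its reads. Of 8 tested colonic absorptive genes, Mptx1 (10.78 ± 1.35, adjusted p = 0.00627) and Emp1 (1.75 ± 0.45, adjusted p = 0.0452) were higher in cLP and Car1, a carbonic anhydrase that red cells also carry, was lower in siLP (-12.29 ± 2.53, adjusted p = 0.0476), all by edgeR. Emp1 was also read in spleen (median 17.75 CPM, against 42.62 CPM in cLP), and its highest value was 132.7 CPM in the CAR-deficient siLP library a. Mptx1, a mucosal pentraxin, read 7.2, 1.31 and 6.71 CPM for wild type cells, then 46.5, 5.96 and 4.99 CPM for CAR-deficient cells of cLP and 0 in every other library. Of 4 tested small intestinal absorptive genes, the triglyceride enzyme Dgat1 was higher in cLP (2.26 ± 0.37, edgeR adjusted p = 0.00267), a gene read in all spleen libraries too.

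Lists of other cells gave few calls. Of 22 tested further macrophage, granulocyte and dendritic genes, 2 were lower in cLP, the macrophage factor Spic (-3.85 ± 0.90, edgeR adjusted p = 0.0283) and the mannose receptor Mrc1 (-6.79 ± 1.48, edgeR adjusted p = 0.0409), and 0 in siLP. Of 4 tested enteric neuron and glia genes Uchl1 was lower in cLP (-5.85 ± 1.46, edgeR adjusted p = 0.0452), and of 4 tested adipocyte genes Lpl was higher (2.04 ± 0.53, edgeR adjusted p = 0.0492). The costimulatory receptor Cd28 of the T cell list was higher in cLP (2.22 ± 0.36, edgeR adjusted p = 0.00278) and siLP (1.77 ± 0.36, edgeR adjusted p = 0.0225), while no other of its 15 genes passed in cLP or siLP. No gene passed in either gut organ among 6 tested genes of other endothelium, 11 of other erythroid genes, 5 of B and plasma cells, 3 of mast cells, 3 of platelets, 5 of pancreatic acinar cells and 9 of NK, ILC and CD8 cells. The most abundant of each were the endothelial factor Vwf with a mean of 1.36 CPM, the transferrin receptor Tfrc with 56.2 CPM, the light chain gene Igkc with 123.5 CPM, the stem cell factor receptor Kit with 1.01 CPM, the platelet chemokine Pf4 with 0.452 CPM, the elastase Cela1 with 38.4 CPM and the T-box factor Eomes with 84.4 CPM.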

How the data were processed

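RNA was measured in 18 libraries of about 500 sorted CD4+ T cells, made with the SMART-Seq v4 and NEBNext Ultra II kits per the labels' protocols. The deposited values used are estimated counts per gene, per the file headers. Salmon, DESeq2 and mm10 are named in the submitters' processing notes without roles, and the sources used here give no annotation. The 37 other columns were not used. Columns marked CD45.1 negative were taken as CAR-deficient by elimination. Positions come from GENCODE vM21 (34083 of 34162 identifiers matched, 79 did not).

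The markers and the further lists were chosen with earlier results of these data known. Each marker past the threshold is named, with up to 3 of smallest p per comparison, and described by library if called or at a mean of at least 1 CPM. Further lists give up to 3 called genes per comparison, else the most abundant one.

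Counts were rounded, filtered with filterByExpr and scaled by TMM. 6 group means were fitted over 18 libraries with glmQLFit and tested two-sided with glmQLFTest (R 4.3.3, edgeR 4.0.16), with Benjamini-Hochberg adjustment over 14876 genes and a threshold of 0.05. Organ comparisons average both genotypes. The SE is the absolute log2 difference over the square root of F. CPM are on TMM-scaled library sizes. TPM were computed from the counts and vM21 merged exon lengths, a step chosen after the data were seen. Intervals are 95% exact binomial and, like the limit of 3 counts, cover counting error only. Alternatives used limma 3.58.1 (voom with quality weights), DESeq2 1.42.0, DESeq2 size factors, no filter, 1 genotype alone, a block, and libraries left out. Libraries of a group correlated at 0.872 to 0.975, which does not show that they are independent. Each was counted as its own library, and the main fit has no term for the column ending. Organ comparisons thus count 6 libraries per organ, which may stand for fewer independent units if libraries that share an ending are linked. The fit was also run on simulated independent libraries. These hold no correlation by column ending, so they cannot test its effect.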

Additional observations from a re-analysis of the deposited data

How the results depend on the processing

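With the libraries of 1 genotype, calls among the 36 tested markers fell from 16 to 1 (wild type) and 1 (CAR-deficient) in cLP against spleen, and from 5 to 0 and 0 in siLP against spleen. Leaving out 1 library gave 7 to 16 calls in cLP, 3 to 5 in siLP and 0 to 1 between the gut organs. The lowest siLP count followed the loss of spleen wild type a or b, or CAR-deficient b. DESeq2 gave 18, 10 and 7 calls in these 3 comparisons, voom with quality weights 21, 4 and 12, no filter 20, 7 and 3, and edgeR without the a libraries 16, 6 and 11. Over all genes the calls were 1054, 396 and 214 with DESeq2, 1828, 251 and 434 with voom, 530, 123 and 32 without the filter, and 749, 106 and 162 without the a libraries. The edgeR fit to all libraries called 404 higher and 52 lower in cLP, 120 and 6 in siLP, and 0 between the gut organs. DESeq2 size factors changed no call. A planned fit of log2(TPM + 1) was not run, since the deposited TPM columns were not used. Without the filter, Muc2 and Cldn3 were also called higher in cLP. The cause of these shifts was not tested.

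The columns carry no replicate numbers, so the replicate block was the column ending. It gave 16, 5 and 1 calls: Cldn7 was lost and Alas2 gained in cLP, and Krt19 passed between the gut organs. Deviations from group means correlated over 0.1 for 40 of 45 pairs that share an ending and for 8 of 90 other pairs, a hint from the data and not from the design. The block is additive, so it cannot take up an effect of the ending that differs between organs. The stromal sums of the a libraries, low in cLP and high in siLP, differ in that way.

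Some genotype differences changed sign or came to 0. For Hba-a1 the average was 1.29 without the a libraries and ran from -3.26 to 0.46 with 1 library left out. Krt8 ran from -5.12 to 0.00 and Krt19 from -3.63 to 0.00 in spleen. In siLP Krt8 was 0.00 without the a libraries and ran from 0.00 to 8.37, and Phgr1 from 0.00 to 7.28. The ratio of endothelial medians to spleen was 1.03 in cLP and 1.19 in siLP, and 0 and 0.682 without Pecam1. Summed ratios from TPM, an alternative added after seeing the data, kept within the spread of the libraries. Pooled folds without single libraries were also chosen after seeing the data. Markers under 3 counts cannot be ranked at this depth.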
